A study of Mus musculus with 8 samples.

Results

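The genes described here are 10 genes of the sarcoplasmic reticulum, the internal calcium store of muscle, and of the junction at which that store is opened. They were chosen by name as genes of excitation-contraction coupling (Ryr1, Atp2a1, Atp2a2, Casq1, Casq2, Jph1, Jph2, Trdn, Stac3 and Sln). All 10 were found by Ensembl identifier among the 53647 genes counted in each library, and all 10 passed the filter on low counts. The libraries are RNA-seq of mouse primary myotubes, the multinucleated fibres that muscle precursor cells form in culture. The precursor cells were wild type, came from limb muscle of pups 2 to 3 days old, and were differentiated in medium with 5% horse serum. Cultures were treated for 48 h with IL6, LIF or OSM (interleukin 6, leukaemia inhibitory factor and oncostatin M), each at 250 ng/ml, or were left as controls. Harvest was 72 h after differentiation in each group. Each of the 4 groups has 2 libraries, which the labels do not trace to separate animals, litters or dishes, so p-values measure only the spread between these libraries, which may be technical. The series title names OSM signalling in the muscle wasting of cancer, and the design sets each cytokine against control.

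In skeletal muscle, depolarisation of the T-tubule membrane moves a voltage sensor, the dihydropyridine receptor, which opens the ryanodine receptor in the adjoining sarcoplasmic reticulum, and the released calcium triggers contraction. Calcium is then returned to the store by SERCA pumps, where calsequestrin binds it until the next release. OSM, LIF and IL6 signal through receptors that share the subunit gp130 and activate JAK kinases and STAT factors.

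With OSM, 1 of the 10 genes rose and 1 fell. Sln, which encodes sarcolipin, a very small membrane protein that binds the SERCA pump and lowers the calcium it moves per ATP, was 2.23-fold higher with OSM and 2.03-fold higher with LIF. With IL6 Sln was 1.78-fold higher, which was not called. Casq1, the calsequestrin of fast muscle, fell by 15.6% with OSM, a call that was lost when some single libraries were left out. It was lower by 12.2% with LIF and by 13.5% with IL6, and neither was called. The release channel Ryr1, the pumps Atp2a1 and Atp2a2, the junctophilins and Stac3 did not pass the test with any cytokine. Of all 15603 genes tested, 21.4% were called between OSM and control, so 2 of 10 is a share near the background. Between LIF and control 1 of 10 was called, against 7.66% of all genes, and between IL6 and control 0 of 10, against 0% of all genes (795 genes were at an unadjusted p under 0.05, and DESeq2's Wald test called 19).

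Because Sln carries the largest change, its coding sequence is shown. It lies on GRCm38 at chr9:53853473-53853568 on the + strand, wholly within exon 2 of the 2 exons that GENCODE M21 gives the gene. At 96 bases with its stop codon, it holds only 31 codons. Capitals mark the start and the stop codon.
Sln: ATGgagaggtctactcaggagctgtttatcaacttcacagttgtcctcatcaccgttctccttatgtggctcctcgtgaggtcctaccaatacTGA

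For the calsequestrins, the windows around the transcription start are shown for Casq1, which was called, and for Casq2, its relative of slow and cardiac muscle, which was not. Their log2 changes with OSM were −0.24 (95% interval −0.40 to −0.09) and −0.17 (−0.31 to −0.03). These intervals overlap, which is not a test of a difference between the genes. Within libraries, the log2 ratio of Casq1 to Casq2 counts differed from control by −0.075 with OSM. The exact permutation p was 0.333, the smallest that 2 against 2 libraries can give, so that test cannot show a difference. The windows are from RefSeq on GRCm38.p6, each 300 bases long (250 before and 50 after the start), at chr1:172219846-172220145 on the − strand for Casq1 and chr3:102086165-102086464 on the + strand for Casq2. Capitals mark E-boxes (CANNTG, which reads the same on both strands), the motif bound by the MyoD family of muscle transcription factors.
Casq1: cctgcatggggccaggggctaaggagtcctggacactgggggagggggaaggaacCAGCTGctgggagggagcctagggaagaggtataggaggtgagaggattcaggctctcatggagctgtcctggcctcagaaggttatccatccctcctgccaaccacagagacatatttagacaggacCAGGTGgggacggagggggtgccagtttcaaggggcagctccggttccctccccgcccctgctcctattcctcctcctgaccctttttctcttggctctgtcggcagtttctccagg
Casq2: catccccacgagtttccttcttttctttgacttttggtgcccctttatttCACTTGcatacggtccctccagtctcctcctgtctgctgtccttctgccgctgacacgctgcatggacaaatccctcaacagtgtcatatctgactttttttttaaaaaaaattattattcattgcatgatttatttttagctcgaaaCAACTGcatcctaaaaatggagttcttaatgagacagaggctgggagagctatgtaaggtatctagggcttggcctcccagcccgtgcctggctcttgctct

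Each calsequestrin window holds 2 E-boxes, and 72.3% of all 32851 windows in the table hold at least 1. A STAT-type motif (TTCNNNGAA, both strands), present in 8.30% of all windows, was found in neither. Nor was a MEF2-type motif in the spelling searched (CTANNNNTAG, both strands), present in 3.69%. That spelling requires a C as its first letter. The Casq2 window holds ttatttttag, which differs from it only in that letter and was not counted, so absence of a MEF2 site is not shown. Promoter windows were found for 5 of the 10 genes, Ryr1, Atp2a1, Casq1, Casq2 and Jph2. Sln and the remaining members had no window, so their promoters were not searched. Among the 5, Atp2a1 alone held a STAT-type match, 1 in its window. A match says only that these letters occur there.

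Libraries were close in depth, from 29482077 to 30025471 gene counts, and the 10 genes together took 0.473% to 0.526% of each. Levels below are CPM, a gene's counts relative to the library total after TMM scaling. All 12 markers of myotubes reached 1 CPM in at least 1 library. They summed to 32941 and 34514 CPM in control, 29500 and 32018 with IL6, 30290 and 32147 with LIF, and 29339 and 29370 with OSM. The 6 markers of myoblasts and dividing cells summed to 748 to 833 CPM in control, 704 to 733 with IL6, 572 to 611 with LIF and 331 to 358 with OSM. With OSM 5 of these 6 were called, 2 higher and 3 lower. The 9 fibroblast markers summed to 1669.6 to 1733 CPM in control, 1514 to 1716 with IL6, 1993 to 2056 with LIF and 2064 to 2172 with OSM, with Lum and Tcf21 at 0 in all libraries. Their sum is mostly Col3a1 (mean 1433 CPM in control, 2018 with OSM), which rose with OSM, as did Pdgfra, while Postn fell (16.6 to 5.06 CPM) and Col1a1 was at 239 and 78.4 CPM and was not called. The 5 smooth muscle markers summed to 679.6 to 799 CPM in control, 659 to 717 with IL6, 754 to 788 with LIF and 918 to 936 with OSM. Of these, 4 were tested, and with OSM 2 were called higher and 1 lower, while with LIF 1 was called lower. Myh11 and Cnn1 were under 1 CPM in all libraries. The sums for macrophage, endothelial, Schwann and adipocyte markers did not exceed 5.44 CPM in any library. The 6 cardiac markers summed to 2999 to 3513 CPM in control, 2836 to 2953 with IL6, 2441 to 2729 with LIF and 2436 to 2473 with OSM, nearly all of it Myl4. With OSM and with LIF 2 of them, Myl4 and Myh6, were called lower, and Nppa was at 0 throughout. The part of these shifts in the values below was not tested. In bulk RNA, fewer cells of a type and less RNA per cell cannot be told apart.

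Sln was the least abundant of the 10. Its counts were 111 and 166 in the control libraries, 278 and 222 with IL6, 249 and 319 with LIF, and 312 and 307 with OSM. On the CPM scale these were 3.81 and 5.57 in control, 9.20 and 7.49 with IL6, 8.37 and 10.7 with LIF, and 10.7 and 10.3 with OSM. All 6 cytokine libraries lay above both control libraries, and the LIF and OSM libraries overlapped.

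The mean rose from 4.69 ± 1.25 CPM (SD, n = 2) in control to 10.5 ± 0.263 with OSM. This is a log2 change of 1.16 (SE 0.18, 95% interval 0.76 to 1.56), with an adjusted p of 0.000553 in edgeR's quasi-likelihood test with Benjamini-Hochberg adjustment. With LIF the mean was 9.53 ± 1.63 CPM (SD, n = 2), a log2 change of 1.02 (interval 0.62 to 1.42, edgeR adjusted p 0.00455). Without LIF replicate 2, the higher LIF library, the change with LIF was 0.835 (edgeR adjusted p 0.0820) and no longer passed. With IL6 the mean was 8.34 ± 1.21 CPM (SD, n = 2), and the log2 change of 0.83 (SE 0.19, interval 0.42 to 1.23) did not pass (edgeR unadjusted p 0.000692, adjusted p 0.450). The change with IL6 passed without the low-count filter (edgeR adjusted p 8.34e-05) and narrowly in DESeq2's Wald test (adjusted p 0.0489). It was 0.672 without IL6 replicate 1 and 0.968 without IL6 replicate 2.

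No difference in Sln was called between the cytokines. OSM exceeded LIF by 0.14 on the log2 scale (95% interval −0.23 to 0.51, edgeR adjusted p 0.731) and IL6 by 0.33 (−0.04 to 0.70, edgeR adjusted p 0.236). Over the alternatives the adjusted p for OSM against IL6 ran from 0.115 to 0.567. Both intervals include 0, and both reach differences of the order of 0.5 or more, so equality is not shown.

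**Figure D1:**
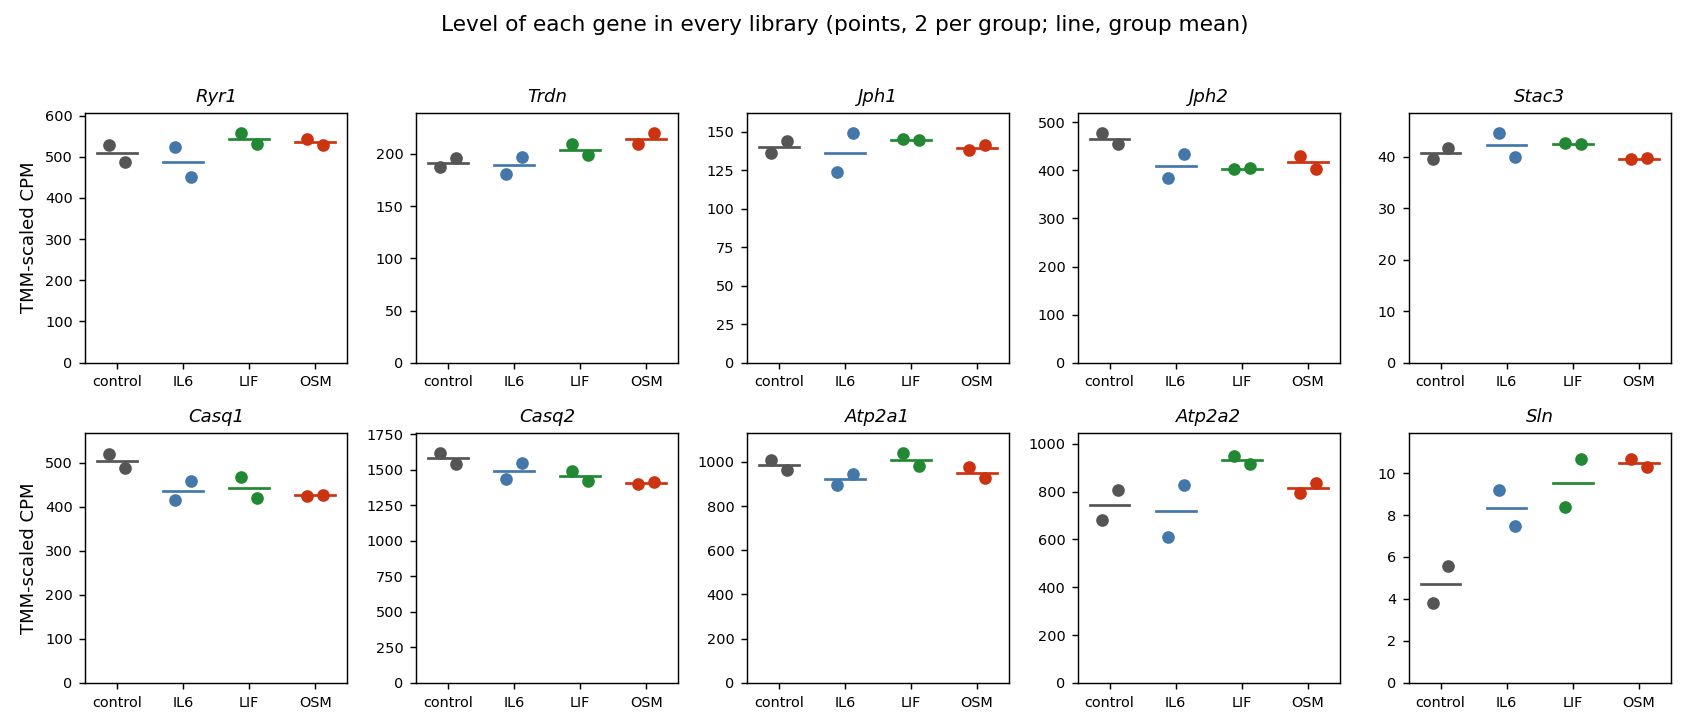
TMM-scaled CPM (y axis, from 0) of the 10 genes in every library, by group (x axis); points are the 2 libraries of a group and lines their mean. The 6 cytokine libraries of Sln lie above both control libraries, and most other panels are nearly level.

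Sln acts on the SERCA pumps, whose genes are Atp2a1 (SERCA1, the pump of fast fibres) and Atp2a2 (SERCA2, the pump of slow fibres, heart and many other cells). Atp2a1 was at 1009 and 961 CPM in control, 895 and 947 with IL6, 1040.1 and 980.3 with LIF, and 977 and 925 with OSM. Control and OSM libraries overlapped, and so did control and LIF libraries. Its log2 change was −0.05 with OSM (95% interval −0.19 to 0.09, edgeR adjusted p 0.634), an interval of 0.878- to 1.06-fold. In GENCODE M21, 21.9% of the exon bases of Atp2a1 overlap Rabep2 on the opposite strand, and the strand setting of the counting is not given in the sources used here, so some counts could belong to Rabep2.

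Atp2a2 libraries lay far apart in control and with IL6 (SD 87.2 and 153 CPM) and closer with LIF and OSM. It was at 682 and 805.5 CPM in control, 611 and 827 with IL6, 951 and 913 with LIF, and 795 and 838 with OSM. Both LIF libraries were above all 6 others. The log2 change with LIF was 0.33 (SE 0.13, 95% interval 0.04 to 0.61), which did not pass (edgeR adjusted p 0.176). It passed in a fit of LIF and control alone (edgeR adjusted p 0.0307), with either IL6 library left out (0.00815 and 0.00783), with the replicate number as a block (0.0369) and without the low-count filter (0.00192). Over all alternatives the adjusted p ran from 0.00192 to 0.580. With OSM the change was 0.13 (interval −0.15 to 0.42).

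The calsequestrins bind calcium inside the store. Casq1 was at 521 and 489 CPM in control, 415 and 459 with IL6, 467 and 419 with LIF, and 425 and 428 with OSM. Both control libraries were above all 6 cytokine libraries. The log2 change with OSM was −0.24 (SE 0.07, 95% interval −0.40 to −0.09, edgeR adjusted p 0.0259), a fall from 505 ± 22.6 to 426 ± 2.15 CPM (SD, n = 2). The call was lost without control replicate 1 (−0.20, edgeR adjusted p 0.126), without OSM replicate 1 (−0.23, 0.173) and without OSM replicate 2 (−0.24, 0.140). With LIF the change was −0.19 (edgeR adjusted p 0.147) and with IL6 −0.21 (edgeR adjusted p 0.943), and neither passed. In M21, 8% of the exon bases of Casq1 overlap Gm17224 on the opposite strand, so some counts could belong to that gene. The summed myotube markers given above were also lower in each cytokine library than in both control libraries, and in OSM 5 of the 12 were called lower and 1 higher.

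Casq2 was the most abundant of the 10 per length of transcript. It was at 1619 and 1544 CPM in control, 1434 and 1549.6 with IL6, 1492.5 and 1420.3 with LIF, and 1398 and 1416 with OSM. The OSM libraries were the lowest 2 of the 8. The log2 change with OSM was −0.17 (SE 0.06, 95% interval −0.31 to −0.03), which did not pass (edgeR adjusted p 0.0812). It passed with library totals in place of TMM scaling (edgeR adjusted p 0.0424) and with either IL6 library left out (0.0378 and 0.0334).

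None of the genes of the channel and the proteins around it was called with a cytokine. Ryr1, the release channel itself, was at 529 and 487 CPM in control, 523 and 452 with IL6, 557 and 529.7 with LIF, and 542 and 527 with OSM. Control and OSM libraries overlapped, and both LIF libraries were just above both controls. Its log2 change was 0.07 with OSM (95% interval −0.09 to 0.23, edgeR adjusted p 0.535), 0.10 with LIF (−0.06 to 0.26, edgeR adjusted p 0.533) and −0.06 with IL6 (−0.22 to 0.10, edgeR adjusted p 0.959). As a fold, the interval with OSM ran from 0.942 to 1.18.

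Trdn encodes triadin, which ties calsequestrin to the ryanodine receptor. It was at 187 and 196 CPM in control, 181 and 197 with IL6, 209 and 199 with LIF, and 209 and 219.8 with OSM, with both OSM and both LIF libraries above both controls. The log2 change with OSM was 0.16 (SE 0.06, 95% interval 0.02 to 0.30), which did not pass (edgeR adjusted p 0.0932, and 0.0345 and 0.0400 with either IL6 library left out).

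Junctophilins hold the T-tubule and the store together. Jph1, the skeletal muscle form, was at 136 and 144 CPM in control, 124 and 149 with IL6, 145 and 144 with LIF, and 138 and 141 with OSM, and its log2 change with OSM was −0.01 (95% interval −0.18 to 0.16). Jph2, which skeletal muscle shares with heart, was at 477 and 455 CPM in control, 385 and 434 with IL6, 402 and 405 with LIF, and 431 and 403 with OSM. All 6 cytokine libraries of Jph2 were below both control libraries. Its log2 change was −0.21 with LIF (edgeR adjusted p 0.0922), −0.16 with OSM (0.119) and −0.19 with IL6 (0.943), and none passed. With either IL6 library left out both passed (edgeR adjusted p 0.0237 and 0.0227 with LIF, 0.0487 and 0.0419 with OSM), and the change with LIF also passed without the low-count filter (0.0363) and with only its own 2 groups (0.0486).

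Stac3 encodes an adaptor that links the voltage sensor to the release channel. It was at 39.7 and 41.8 CPM in control, 44.7 and 39.96 with IL6, 42.7 and 42.5 with LIF, and 39.5 and 39.8 with OSM. Control and OSM overlapped, and the log2 change with OSM was −0.04 (95% interval −0.20 to 0.12).

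**Figure D2:**
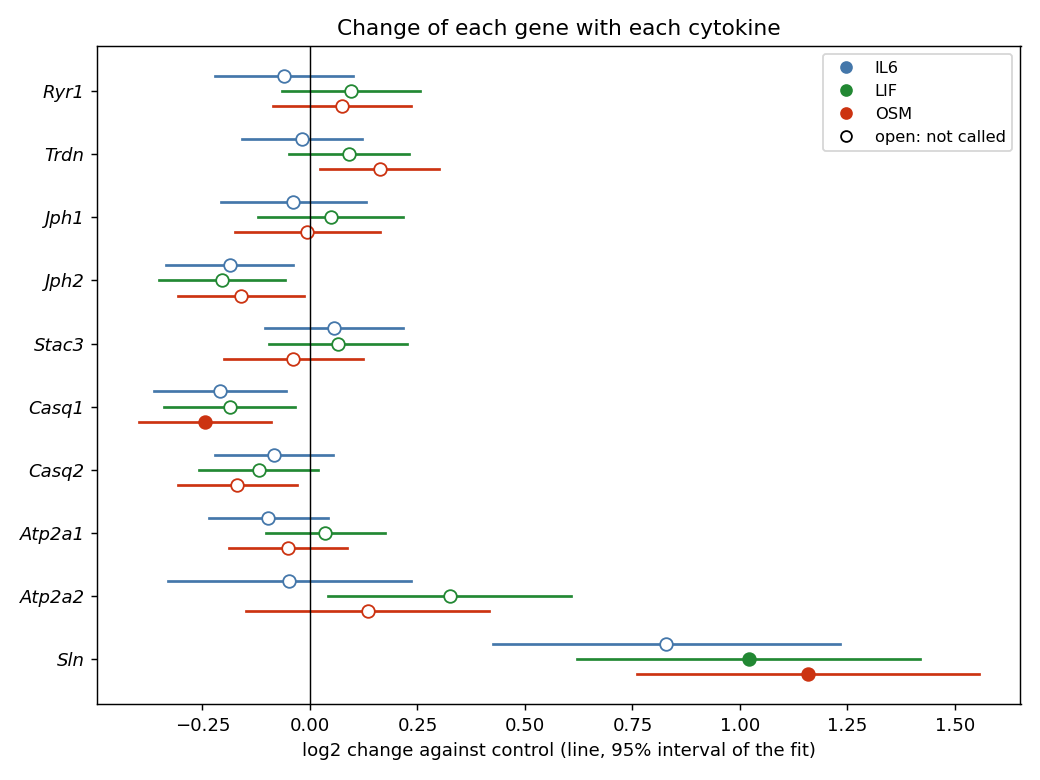
Log2 change against control (x axis) of each gene (y axis) with IL6, LIF and OSM; lines are 95% intervals of the edgeR fit, filled points were called at an adjusted p under 0.05. The filled points are Sln with OSM (1.16) and LIF (1.02) and Casq1 with OSM (−0.24).

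Across the 10 genes the median log2 change was −0.02 with OSM, 0.06 with LIF and −0.055 with IL6, beside −0.0029, −0.0079 and 0.0006 over all tested genes. With OSM 4 of the 10 were higher and 6 lower, with LIF 7 higher and 3 lower, and with IL6 2 higher and 8 lower. These 3 comparisons share the control libraries. In edgeR's test at an unadjusted p under 0.05 there were 5 with OSM, 4 with LIF and 3 with IL6, beside 32.8%, 20.5% and 5.10% of all tested genes. The DESeq2 Wald test called 1 of the 10 with IL6, Sln, at an adjusted p of 0.0489.

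Compared directly, the cytokines gave no called difference in these genes. Between OSM and LIF edgeR called 0 of 10, against 8.04% of all genes, with 0 at an unadjusted p under 0.05. Between OSM and IL6 it called 0 of 10, against 15.5%, with 1 at an unadjusted p under 0.05 (Trdn, 0.18 higher with OSM). Between LIF and IL6 it called 0 of 10, against 2.78%, with 1 at an unadjusted p under 0.05 (Atp2a2, 0.37 higher with LIF). DESeq2 called 0 in each of the 3. In a fit of OSM and LIF alone, Atp2a2 was called lower with OSM (−0.19, edgeR adjusted p 0.00413).

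Levels of different genes were compared in control per kilobase of exon (CPM divided by the length of the union of M21 exons). Casq2 stood at 578 ± 19.4 CPM per kb (SD, n = 2), Atp2a1 at 283 ± 9.67, Casq1 at 259 ± 11.6, Atp2a2 at 122 ± 14.3 and Jph2 at 109 ± 3.70. The next were Jph1 at 28.0 ± 1.17, Ryr1 at 23.3 ± 1.37, Trdn at 20.5 ± 0.680, Stac3 at 16.0 ± 0.586 and Sln at 3.56 ± 0.947 CPM per kb. No 2 neighbours in this order overlapped between their control libraries, though Atp2a2 at its lowest (112.2) and Jph2 at its highest (112.1) nearly met. The order depends on the length used. With the longest transcript as length, Trdn was at 42.4, Ryr1 at 33.1 and Jph1 at 29.1 CPM per kb, the reverse of their order above, and Atp2a1 and Casq1 overlapped.

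Several members come in pairs of a fast or skeletal form and a form shared with slow muscle or heart, and a ratio within each library needs no scaling. The log2 ratio of Atp2a1 to Atp2a2 counts was 0.57 and 0.26 in control, 0.55 and 0.20 with IL6, 0.13 and 0.10 with LIF, and 0.30 and 0.14 with OSM. Both LIF libraries lay below the other 6, lower than control by 0.29 on average (by 0.139 without control replicate 1 and by 0.449 without control replicate 2). The ratio of Casq1 to Casq2 was −1.64 and −1.66 in control, −1.79 and −1.76 with IL6, −1.68 and −1.76 with LIF, and −1.72 and −1.73 with OSM, so both controls lay above the 6 cytokine libraries. The ratio of Jph1 to Jph2 was −1.81 and −1.66 in control, −1.64 and −1.54 with IL6, −1.47 and −1.49 with LIF, and −1.65 and −1.51 with OSM, so both controls lay below the 6. The exact two-sided permutation test of 2 against 2 libraries cannot go below 0.333. Against control it gave that value for the Casq and the Jph ratio with each cytokine and for the Atp2a ratio with LIF, and 0.667 for the Atp2a ratio with OSM or IL6 against control.

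**Figure D3:**
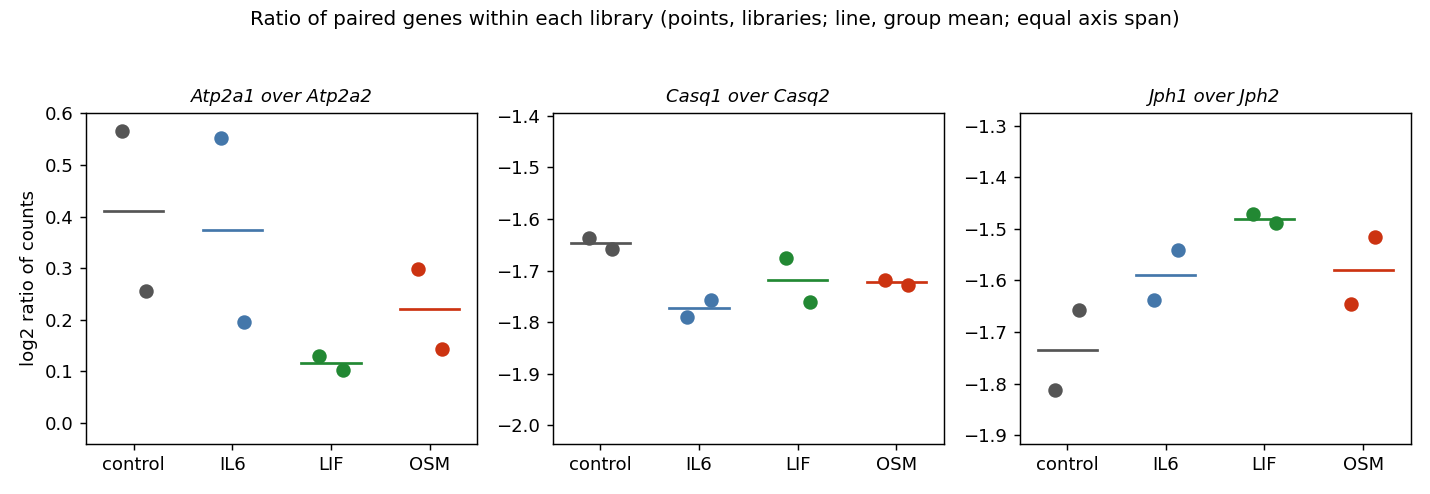
Log2 ratio of counts (y axis, equal span in each panel) of 3 gene pairs in every library, by group (x axis); points are libraries and lines group means. For Atp2a1 over Atp2a2 the LIF libraries (0.13 and 0.10) are the lowest, while control and IL6 libraries spread widely.

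Beyond the 10, 45 other genes of excitation-contraction coupling in 8 lists were read, of which 42 were tested. With OSM 2 rose and 5 fell, and with LIF 2 rose and 1 fell, beside 10.8% higher and 10.6% lower of all genes with OSM and 4.20% and 3.46% with LIF. With IL6 edgeR called 0, with 3 at an unadjusted p under 0.05, and DESeq2 called 0. The median log2 change of the 42 was 0.03 with OSM and 0.04 with LIF.

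Among pumps and their regulators, the pump gene Atp2a3 (SERCA3, found mainly in non-muscle cells) changed most. It was at 6.55 and 5.44 CPM in control, 4.697 and 5.33 with IL6, 3.296 and 2.55 with LIF, and 2.60 and 2.38 with OSM. It fell by 1.27 on the log2 scale with OSM (SE 0.19, edgeR adjusted p 0.000325) and by 1.04 with LIF (SE 0.19, edgeR adjusted p 0.00398; 0.0820 without LIF replicate 2). The OSM and LIF libraries were below all control and IL6 libraries. Pln, encoding phospholamban, the SERCA inhibitor of heart and slow muscle, was at 8.51 and 4.37 CPM in control and 9.27 and 9.53 with OSM, and did not pass (0.55, edgeR adjusted p 0.126). In M21, 64.7% of the exon bases of Pln overlap genes on the opposite strand. Mrln, encoding myoregulin, a SERCA inhibitor of skeletal muscle, was at 3.09 and 5.31 CPM in control and 4.41 and 5.50 with OSM (0.24, edgeR adjusted p 0.506), and Strit1, which encodes a peptide that enhances SERCA, was at 0.298 CPM or below in each library and was not tested.

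**Figure D4:**
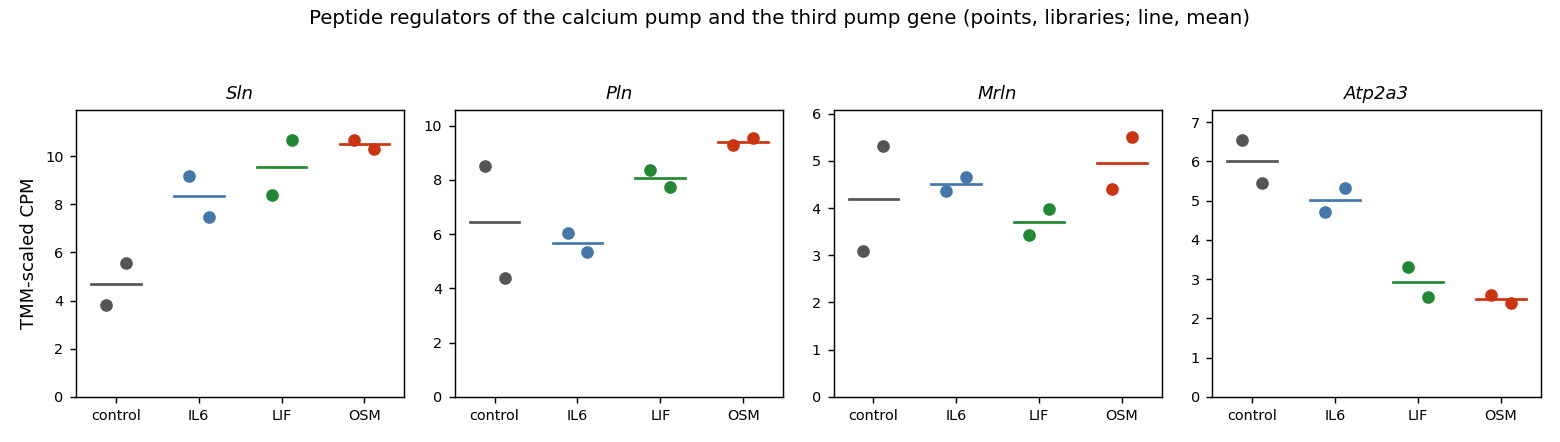
TMM-scaled CPM (y axis, from 0) of Sln, Pln, Mrln and Atp2a3 in every library, by group (x axis); points are libraries and lines group means. Sln is higher in the 6 cytokine libraries and Atp2a3 lower in the LIF and OSM libraries, while control libraries of Pln and Mrln lie far apart.

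At the voltage sensor, 0 of 5 subunit genes were called with OSM, LIF or IL6 in edgeR, with 1 at an unadjusted p under 0.05 in each, and their median log2 change with OSM was 0.00. DESeq2 called 0 of them with OSM and with IL6 and 1 with LIF, Cacng1, the gamma subunit, named here after its value was seen. Among the other release channels, Ryr3 and the 3 inositol trisphosphate receptor genes gave 0 calls with any cytokine, with 1 at an unadjusted p under 0.05 with LIF and 0 calls in DESeq2, and Ryr2, the channel of heart, had no more than 0.0673 CPM in any library. Among modulators of the channel, the calmodulin genes Calm2 and Calm3 fell with OSM by 0.18 and 0.20 (edgeR adjusted p 0.0327 and 0.0334). Leaving out either OSM or either LIF library ended the calls of Calm2 and Calm3, and so did omitting the low-count filter for Calm2, while either control library ended that of Calm2 and control replicate 2 that of Calm3. Calm2 shares 12.7% of its 50-base stretches with other transcripts, so its counts are less certain.

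Of the 11 tested other junction and reticulum genes, 1 rose and 1 fell with OSM. Stac, a relative of Stac3, rose from 1.407 and 1.343 CPM in control to 2.60 and 2.68 (log2 change 0.94, edgeR adjusted p 0.0148). These are low counts, 41 and 40 in control and 76 and 80 with OSM. In M21, 11.3% of the exon bases of Stac overlap Gm43236 on the opposite strand. Ank1, whose small muscle isoform anchors the reticulum to the myofibril, fell by 0.23 (SE 0.07, edgeR adjusted p 0.0220). The Stac call was lost without any of the control or OSM libraries, with adjusted p up to 0.0824, and the Ank1 call without control replicate 1 or either OSM library, with adjusted p up to 0.172. Among genes of the T-tubule, Mtm1, a lipid phosphatase gene mutated in myotubular myopathy, fell by 0.43 with OSM (SE 0.10, edgeR adjusted p 0.00901; lost without control replicate 1 at 0.0767 or OSM replicate 1 at 0.130). Dysf, encoding the membrane repair protein dysferlin, rose by 0.25 with LIF (SE 0.06, edgeR adjusted p 0.0260), a call lost without any of the control or LIF libraries (adjusted p up to 0.250).

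The reticulum calcium buffer gene Calr, encoding calreticulin, was at 601 and 796 CPM in control and 915 and 918 with OSM. It rose with OSM by 0.39 (SE 0.12, edgeR adjusted p 0.0424), a call that ended in 8 of the alternatives, DESeq2 among them (adjusted p 0.0970). The change was 0.20 without control replicate 1 (edgeR adjusted p 0.157) and 0.62 without control replicate 2 (0.000332). Store-operated calcium entry genes (Stim1, Stim2 and 3 Orai genes) gave 0 calls with any cytokine in edgeR. At an unadjusted p under 0.05 the number was 2 for LIF, 1 for OSM and 0 for IL6, while DESeq2 called 0.

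**Figure D5:**
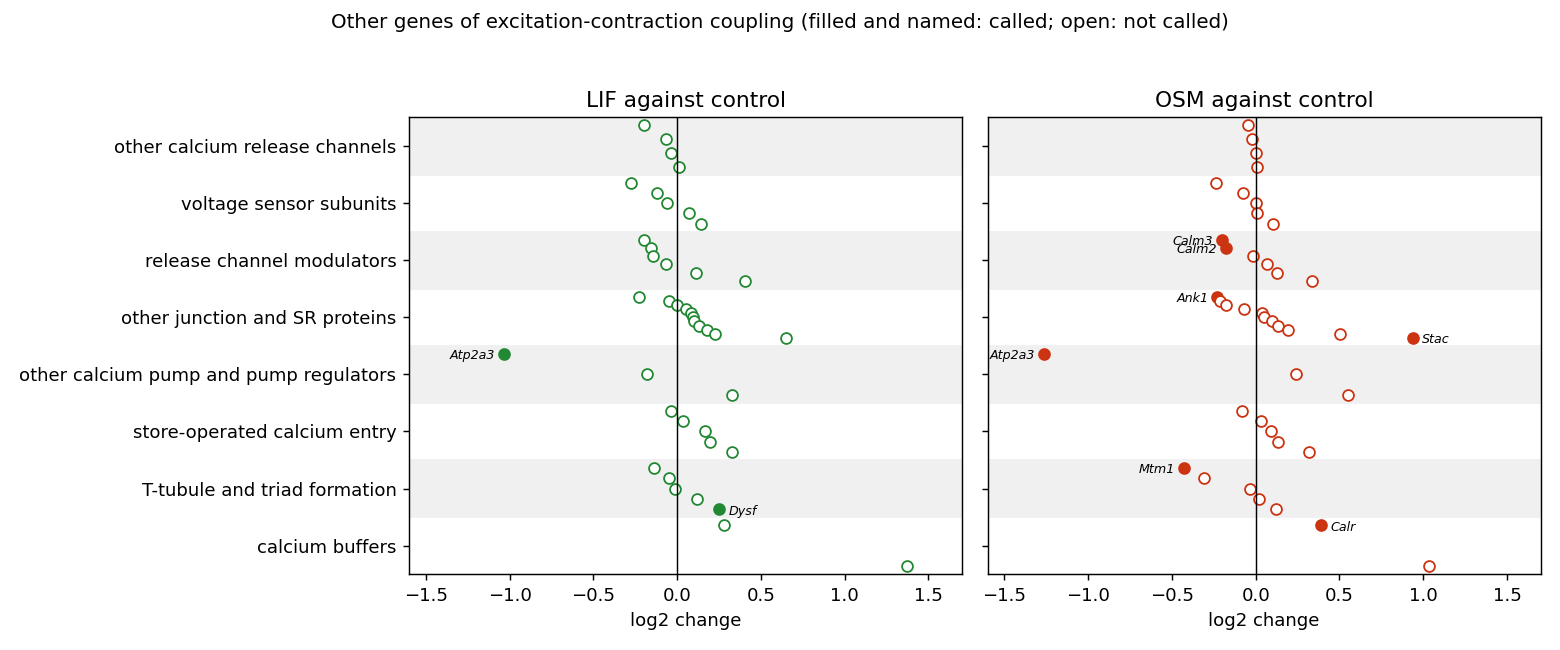
Log2 change against control (x axis) with LIF and OSM of the other tested genes, in 8 lists (y axis); filled, named points were called and open points were not. Most points lie near 0, and Atp2a3 is farthest to the left in both panels (−1.04 and −1.27).

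The genes whose log2 CPM followed each member most closely over the 8 libraries were sought among 10870 named genes whose counts averaged 100 or more. For Sln these were Dnajb4 (Pearson r 0.970), Ids (0.969) and Epb41l4b (0.959). For Casq1 they were Afap1l1 (0.973), Fgfbp1 (0.971) and Tagln (0.965). For Casq2 they were Hars (0.985), Mib2 (0.983) and Pcca (0.982), and for Trdn Golga5 (0.989), Crtc3 (0.976) and Arhgap42 (0.975). Atp2a2 was followed by Gpr157 (0.983), Cdkn2d (0.969) and Adcy2 (0.967), and Atp2a1 by Zfp689 (0.978) and Smco4 (0.962). For Jph1 they were Naca (0.977), Ubfd1 (0.976) and Cipc (0.970), and for Jph2 Rassf8 (0.960), Cmip (0.956) and Cadm4 (0.954). Ryr1 was followed by B9d2 (0.960), Ncoa6 (0.959) and Pigb (0.936), and Stac3, with the lowest values, by Cemip (0.923), Anapc13 (0.918) and Sgf29 (0.909). These are descriptions over 8 points that share libraries and scaling, picked as the highest of many.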

How the data were processed

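RNA of mouse primary myotubes was sequenced in 8 libraries made with a stranded poly(A) library kit, per the labels' protocols. The authors deposited raw read counts per Ensembl gene, 1 file per library. The submitters' processing notes name Trim Galore 0.6.5, STAR 2.7.3a, HTSeq 0.11.1, DESeq2 1.34.0 and the build GRCm39 (mm39). The annotation release and strand setting are not given in the sources used here. Summary lines for reads assigned to no gene (11.7% to 12.7% of recorded alignments) stayed out of library sizes and tests.

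Symbols came from GENCODE M21 (GRCm38), which named 52093 of 53647 identifiers, and Strit1 was matched through a RefSeq synonym. Lengths, overlaps and sequences are also of GRCm38, not the authors' build. Counts were tested with edgeR 4.0.16 in R 4.3.3 (filterByExpr at a minimum count of 10, TMM, robust quasi-likelihood F test over all 4 groups, 4 residual degrees of freedom), with Benjamini-Hochberg adjustment over all 15603 genes of a contrast and a call at an adjusted p under 0.05. The procedure was also run on simulated counts. The changes set there were larger than those against control in the 10 genes other than Sln, so that run does not bear on changes as small as theirs. SEs are the absolute log2 change over the root of F, and 95% intervals use the t quantile at the fit's degrees of freedom. Of the 10 genes Sln had the lowest counts (111 to 319), and its SEs against control (0.183 to 0.187) were above those of the others (0.064 to 0.126). Alternatives were RLE or no scaling, no filter, DESeq2 1.42.0, 2 groups only, a replicate block and leaving out each library. Replicates of a group differed beyond counting error (mean chi-square per gene 3.04 to 12.3).

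The 10 genes and all lists were chosen with earlier results of these data known. Named genes are the 10, at most 4 called genes of each other list by smallest p, and for each member the 3 genes with the highest Pearson r. Some items that this rule names are not reported here, in the text or in the plots.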

Additional observations from a re-analysis of the deposited data

How the results depend on the processing

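With 2 libraries a group, and with a left-out library a lone sample assumed to vary like the other groups, calls near the threshold moved with single libraries. Sln with OSM passed in each alternative run (log2 change 0.91 to 1.47). Of 180 values for the 10 genes against control under other settings, 170 kept direction and call, 8 passed newly and 2 changed sign, and of 240 with a library left out these were 211, 11 and 14, with 4 calls lost. Between cytokines 174 of 180 and 220 of 240 were unchanged.

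The number of the 10 called with LIF, 1 in the report, was 3 without the low-count filter, 3 with only the 2 groups and 2 with the replicate block. With IL6 it was 1 without the filter and 1 with DESeq2. Between cytokines it was 1 for OSM against LIF with only the 2 groups, and 1 for OSM against IL6 and 1 for LIF against IL6 both without the filter and with the replicate block. With each library left out the number ran from 1 to 5 for OSM (5 without either IL6 library), 0 to 3 for LIF, 0 to 1 for IL6, 0 to 2 for OSM against IL6 and 0 to 1 for LIF against IL6. Over all genes, OSM calls fell from 3335 to 1622 and 1865 without OSM replicates 1 and 2, and LIF calls from 1195 to 443 and 316 without LIF replicates 1 and 2. IL6 calls rose from 0 to 97 without the filter, 9 with the block, 19 with DESeq2, 14 without control replicate 2, and 3 and 221 without IL6 replicates 1 and 2. OSM against LIF went from 1255 to 2928 with the 2 groups only and as low as 437 without LIF replicate 1, OSM against IL6 from 2426 to 1105 without OSM replicate 1, and LIF against IL6 from 434 to 985 without the filter, 826 with the block and 82 without LIF replicate 1. The cause of these shifts was not tested.

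The replicate numbers are shared by the groups, but the labels do not say that they pair libraries. Deviations of same-numbered libraries correlated at 0.00708 to 0.181 between groups. With the block Atp2a2 was called for LIF against control (0.33, as was Calr, 0.29) and LIF against IL6 (0.39), and Trdn for OSM against IL6 (0.18), and no other call of the 10 changed.

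Changes of sign, among the values compared here, were in differences that were called in neither fit. Jph1 with OSM was 0.000206 without the filter, and with library totals Trdn with IL6 was 0.00156 and Stac3 for LIF against IL6 was −0.014. With each library left out, Jph1 ran from −0.048 to 0.046 and Stac3 from −0.076 to 0.00754 with OSM, and with LIF Atp2a1 ran from −0.00695 to 0.079, Ank1 from −0.108 to 0.017 and Mtm1 from −0.131 to 0.042. With IL6, Ryr1 ran from −0.170 to 0.041, Atp2a2 from −0.285 to 0.153, Jph1 from −0.181 to 0.089, Trdn from −0.086 to 0.044, Stac3 from −0.027 to 0.134, Calm2 from −0.00737 to 0.021, Ank1 from −0.112 to 0.016, Mtm1 from −0.121 to 0.055 and Calr from −0.028 to 0.380. For OSM against LIF, Ryr1 ran from −0.057 to 0.015, Casq1 from −0.133 to 0.024 and Sln from −0.026 to 0.325. For OSM against IL6, Atp2a2 ran from −0.013 to 0.420, Casq1 from −0.099 to 0.040, Jph1 from −0.089 to 0.176 and Jph2 from −0.051 to 0.118. For LIF against IL6, Casq1 ran from −0.059 to 0.099, Casq2 from −0.087 to 0.024, Jph1 from −0.038 to 0.230, Jph2 from −0.100 to 0.072 and Stac3 from −0.069 to 0.094. With a library left out, an alternative chosen after seeing the data, the difference from control in the log2 ratio of Atp2a1 to Atp2a2 ran from −0.449 to −0.139 with LIF, −0.344 to −0.035 with OSM and −0.215 to 0.142 with IL6.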
